A study of Mus musculus with 242 samples.

Results

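Stellate cell and matrix genes are 37 genes of the liver's mesenchyme, chosen by name for their known roles: collagens, basement membrane and other matrix proteins, collagen cross-linking enzymes, matrix proteases and their inhibitors, cytoskeletal markers of activated stellate cells, retinoid storage, and growth factor signalling. A gene with several probe sets was represented by the one whose mean signal over the 242 arrays was highest. On these arrays 35 of the 37 were measured, out of 18193 genes, and Fbn1 and Loxl2 were not analysed here. No low signal was filtered out, so all 35 entered every test.

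Hepatic stellate cells lie between hepatocytes and the sinusoidal endothelium and store vitamin A as retinyl esters, which Lrat makes. After liver injury they lose their retinoid, take on a contractile phenotype with smooth muscle actin (Acta2), and lay down fibrillar collagen, the basis of liver fibrosis. Tgfb1 drives collagen synthesis and PDGF ligands, acting through Pdgfra and Pdgfrb, drive stellate cell growth and migration.

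The series holds 242 single-colour arrays, 1 per mouse, of liver RNA from female B6C3F1 mice that were 5 weeks old at the start and were killed at 18 weeks after 13 weeks of exposure to a chemical or its vehicle alone. The right, caudate and median lobes were minced together, so the RNA is that of bulk liver, in which fewer stellate cells and less RNA per cell cannot be told apart. The series was made to find liver transcripts that could predict later tumours. Here each treated group is compared with a single control set of its run and vehicle. Of the 46 treated and 14 control groups, 46 have 4 mice, 8 have 5 and 6 have 3.

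The arrays fall into 4 runs by the codes in the labels. The 4-letter codes in parentheses mark the chemicals in the plots. In run A (54 arrays), benzene (BENZ) at 100 mg/kg, coumarin (COUM) at 200 mg/kg and 1,2-dibromoethane (DBET) at 62 mg/kg were given by gavage in corn oil. 2-Chloromethylpyridine hydrochloride (CMPH) at 250 mg/kg and N-methylolacrylamide (MACR) at 50 mg/kg were given by gavage in distilled water. 4-Nitroanthranilic acid (NAAC) at 10000 ppm, 2,2-bis(bromomethyl)-1,3-propanediol (BBMP) at 1250 ppm, malathion (MALA) at 14800 ppm and diazinon (DIAZ) at 200 ppm were given in feed. In run B (36 arrays), tris(2,3-dibromopropyl)phosphate (TDPP) at 1000 ppm and 1-amino-2,4-dibromoanthraquinone (ADBQ) at 20000 ppm were given in feed, tetrafluoroethylene (TFEL) at 1250 ppm and a compound the labels spell Tetrafluororethane (TFEA) at 50000 ppm in air, and trichlorofluoromethane (TCFM) at 3925 mg/kg and iodoform (IODO) at 93 mg/kg by gavage in corn oil. In run C (18 arrays), 2,3-benzofuran (BFUR) at 240 mg/kg was given by gavage in corn oil, and N-(1-naphthyl)ethylenediamine dihydrochloride (NEDD) at 2000 ppm, pentachloronitrobenzene (PCNB) at 8187 ppm and 1,5-naphthalenediamine (NDIA) at 2000 ppm in feed. In run D (134 arrays), 5 chemicals had 5 doses each. 1,4-Dichlorobenzene (DCBZ; 100, 300, 400, 500 and 600 mg/kg) and 1,2,3-trichloropropane (TCPN; 2, 6, 20, 40 and 60 mg/kg) were given by gavage in corn oil. Methylene chloride (MECL; 100, 500, 2000, 3000 and 4000 ppm), propylene glycol mono-t-butyl ether (PGBE; 25, 75, 300, 800 and 1200 ppm) and naphthalene (NPTH; 0.5, 3, 10, 20 and 30 ppm) were inhaled, as were ethylene oxide (ETOX) at 100 ppm and vanadium pentoxide (VANP) at 2 mg/m3. Dosing by gavage or inhalation was on 5 days a week, and treated feed was given on all 7. Within a group the mice were separate animals, numbered here in accession order.

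Values are linear array signals, scaled so that the trimmed mean of each array is 500, and differences are of log2(signal + 17.3), which understates the change of dim genes. A gene counts as called, or as having risen or fallen, where limma's p, adjusted over the 18193 genes tested, was under 0.05 and the difference was 1.5-fold or more. RNA integrity numbers, where given, were 4.7 to 7.8 in run A and 7.1 to 9.4 in the other runs. The defining markers of the cell type differed in level, and no detection call was made. Over the 242 arrays the median signal was 381 for Lrat (78.3 to 1154), 2011 for Reln (700 to 3765), 4753 for Dcn (1304 to 11990) and 897 for Col3a1 (481 to 6686). It was 392 for Pdgfrb (114 to 1813), 152 for Des (14.7 to 447) and 49.9 for Col1a1 (4.23 to 670). The lowest signals of Des and Col1a1 lay below the pseudocount. The mean signals of Col1a1 (69.1), Timp1 (56.3) and Lox (29.8) lay nearer to the pseudocount of 17.3, so small changes of these genes could not be measured well. Among arrays of 1 group the SD was 0.42 (log2) for the median member and 0.45 for the median of all genes. It ran from 0.16 for Fn1 to 0.94 for Col1a1. The liver itself was represented by 10 hepatocyte genes, albumin among them, whose summed signal was at least 354350 in each array of the naphthalene controls.

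2 arrays of run A stood apart from their groups in these genes. In replicate 3 of the 1,2-dibromoethane group, all 35 members were above the mean of the other 3 arrays, by a median of 1.5 (log2), and 26 of them by more than 1, while the median over all genes was 0.09. Of all 18193 genes, 2560 were more than 1 above and 1173 more than 1 below, so the array differed widely outside these genes too. Tagln, an actin-binding protein of contractile cells, had a signal of 3152 there against 133, 182 and 261. Acta2 had 5752 against 351, 467 and 822, and Col3a1, a fibrillar collagen chain, had 6686 against 671, 586 and 778. The smallest excess was that of Fn1, at 0.09. In the same array all 11 Kupffer cell and macrophage genes were more than 1 above the others (median 2.23), as were 6 of 9 lymphocyte and 5 of 7 vascular smooth muscle genes, and the median of 10 hepatocyte genes was -0.31. The 20 further stellate cell and fibroblast genes went both ways, with a median of 0.28, 5 more than 1 above and 5 more than 1 below.

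Replicate 2 of the control set CCO3, which is labelled distilled water and has no treated group, was the other. The median member was 0.68 above the other 3 arrays, and 13 members were more than 1 above and 1 more than 1 below. Of all 18193 genes, 1604 were more than 1 above and 580 more than 1 below. Vim, an intermediate filament protein of mesenchymal cells, had 5729 against 837, 791 and 563, and Tgfb1 had 1677 against 347, 277 and 361. Lrat had 313 against 622, 461 and 736 and was the lowest of the group. All 11 Kupffer cell and macrophage genes were again more than 1 above (median 2.94), and so were 8 of 9 lymphocyte genes. Of the 20 further stellate cell and fibroblast genes 2 were more than 1 above and 2 more than 1 below, with a median of -0.13. The next highest array of the series had a median of 0.46, as the plot of each array against its group shows. Below their groups by more than 0.5 were replicates 1 and 2 of the 1,2-dibromoethane group (-0.78 each), which were set against a mean that holds replicate 3, and replicate 3 of the corn oil controls CCO2 (-0.53). RNA integrity was 6.9 for the first array and 6.7 for the second. With replicate 3 the members' median for 1,2-dibromoethane was 0.21 with 26 of 35 above 0, and without it -0.18 with 10 above 0. limma called no member either way, with a lowest adjusted p of 0.71 and 0.91, and 5 members had an unadjusted p under 0.05 with the array. The part of the other cell types' genes in these 2 arrays was not tested.

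**Figure D1:**
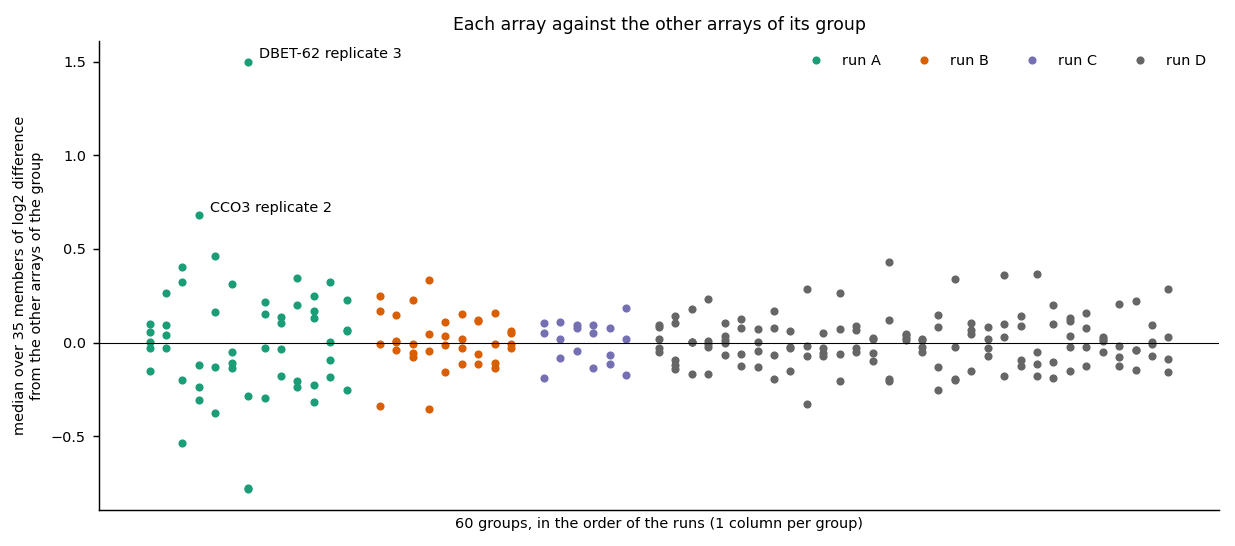
For each of the 242 arrays, the median over the 35 genes of the log2 difference from the mean of the other arrays of its group (vertical axis), with 1 column of points per group and colours for the 4 runs. Replicate 3 of the 1,2-dibromoethane group (DBET-62) stands at 1.5 and replicate 2 of control set CCO3 at 0.68, and no other array exceeds 0.46.

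Promoter sequences are shown for 6 of the genes described below, and other called genes with a window, such as Mmp14 and Pdgfra, are not shown. RefSeq windows (GRCm38.p6) of 300 bases, from 250 before to 50 after the start, were found for 22 of the 35 genes. The 6 shown are the leading genes of the methylene chloride result (Reln and Loxl4), the fibrillar collagen pair that varied together most within groups (Col1a2 and Col3a1), and the basement membrane pair Col4a1 and Col4a2. They lie at chr5:22344656-22344955 (minus strand, Reln), chr19:42612757-42613056 (minus, Loxl4), chr6:4505368-4505667 (plus, Col1a2), chr1:45311288-45311587 (plus, Col3a1), chr8:11312777-11313076 (minus, Col4a1) and chr8:11312555-11312854 (plus, Col4a2). Each reads from 5′ to 3′ on the gene's strand, with capitals for every match, on either strand, of the TATA box letters TATAAA, of the CCAAT box letters CCAAT and of the GC box letters GGGCGG.
Reln: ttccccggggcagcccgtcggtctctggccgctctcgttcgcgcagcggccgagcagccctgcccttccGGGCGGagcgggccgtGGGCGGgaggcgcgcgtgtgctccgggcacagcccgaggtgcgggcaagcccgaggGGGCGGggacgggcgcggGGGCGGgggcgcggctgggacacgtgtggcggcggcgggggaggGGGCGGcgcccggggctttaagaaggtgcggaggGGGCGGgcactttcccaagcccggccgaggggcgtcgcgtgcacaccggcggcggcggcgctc
Loxl4: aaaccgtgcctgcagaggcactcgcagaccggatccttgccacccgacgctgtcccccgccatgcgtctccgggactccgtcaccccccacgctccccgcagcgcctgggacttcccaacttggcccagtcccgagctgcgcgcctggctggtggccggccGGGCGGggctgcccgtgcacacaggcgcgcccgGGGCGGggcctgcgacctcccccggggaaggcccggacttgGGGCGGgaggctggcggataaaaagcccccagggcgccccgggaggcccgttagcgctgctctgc
Col1a2: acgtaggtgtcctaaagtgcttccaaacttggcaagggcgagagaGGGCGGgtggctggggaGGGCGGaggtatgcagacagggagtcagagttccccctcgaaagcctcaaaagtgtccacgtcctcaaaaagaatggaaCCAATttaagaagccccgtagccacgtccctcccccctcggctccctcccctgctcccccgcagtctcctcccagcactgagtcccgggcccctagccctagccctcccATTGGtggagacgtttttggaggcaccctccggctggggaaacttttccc
Col3a1: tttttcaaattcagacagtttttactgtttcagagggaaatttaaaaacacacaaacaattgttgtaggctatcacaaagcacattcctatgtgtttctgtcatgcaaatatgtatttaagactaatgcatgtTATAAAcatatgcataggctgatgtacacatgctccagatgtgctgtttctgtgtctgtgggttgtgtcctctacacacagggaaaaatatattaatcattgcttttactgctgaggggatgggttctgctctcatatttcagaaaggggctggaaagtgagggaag
Col4a1: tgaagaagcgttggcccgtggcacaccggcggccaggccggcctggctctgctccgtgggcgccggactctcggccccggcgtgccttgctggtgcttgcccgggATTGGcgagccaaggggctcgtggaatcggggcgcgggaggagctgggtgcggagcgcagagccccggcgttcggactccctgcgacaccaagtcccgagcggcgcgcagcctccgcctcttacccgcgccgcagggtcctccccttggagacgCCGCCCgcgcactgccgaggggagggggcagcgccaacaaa
Col4a2: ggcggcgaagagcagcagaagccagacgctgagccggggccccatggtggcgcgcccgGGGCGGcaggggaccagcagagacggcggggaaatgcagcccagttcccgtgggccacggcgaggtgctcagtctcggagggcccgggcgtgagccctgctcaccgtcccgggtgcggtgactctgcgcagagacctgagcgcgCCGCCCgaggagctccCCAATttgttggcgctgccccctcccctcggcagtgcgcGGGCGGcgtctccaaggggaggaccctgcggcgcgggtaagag
The windows of Reln and Loxl4 have a GC content of 80.7% and 75.0%, with 6 and 3 matches of GGGCGG and none of TATAAA. That of Col3a1 has 37.7% GC, no CpG and 1 TATAAA, and that of Col1a2 has 2 matches each of CCAAT and GGGCGG. The windows of Col4a1 and Col4a2, which are transcribed away from each other, share 78 bases, from 11312777 to 11312854. TATAAA was found for 2 of the 22 genes, CCAAT for 9 and GGGCGG for 15. Of all 27025 genes with a window 15.7%, 41.1% and 38.2% had a match, and of all 32851 windows 13.6%, 37.4% and 35.7%. A match is a description of the letters and not a binding site.

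Over the 46 treated groups, few of these genes changed. Of 1610 tests of a member in a group, limma called 1 higher (0.0621%) and 9 lower (0.559%), where over all genes 0.331% of tests were called higher and 0.42% lower. All 10 calls were in run D: Loxl4, Reln, Pdgfra and Pdgfrb with methylene chloride, Mmp14 with naphthalene and 1,2,3-trichloropropane, Col6a1 with 1,2,3-trichloropropane, and Col5a2 with 1,4-dichlorobenzene. In runs A, B and C limma called no member in 19 groups, with an unadjusted p under 0.05 in 13 of 315 tests, 16 of 210 and 26 of 140, or 4.13%, 7.62% and 18.6%, against 6.66%, 5.96% and 17.6% of the tests of all genes. Over all runs 189 of 1610 tests (11.7%) had an unadjusted p under 0.05, against 10.4% for all genes. In 10 further tests a member passed the adjusted p with a fold under 1.5, 4 of them Fn1. The share of all genes that did so was not counted, here or in the results below. Groups that share a control set are not independent. When each group was fitted alone with its control set rather than with its whole run, 1 call was left, that of Loxl4 at 4000 ppm methylene chloride.

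**Figure D2:**
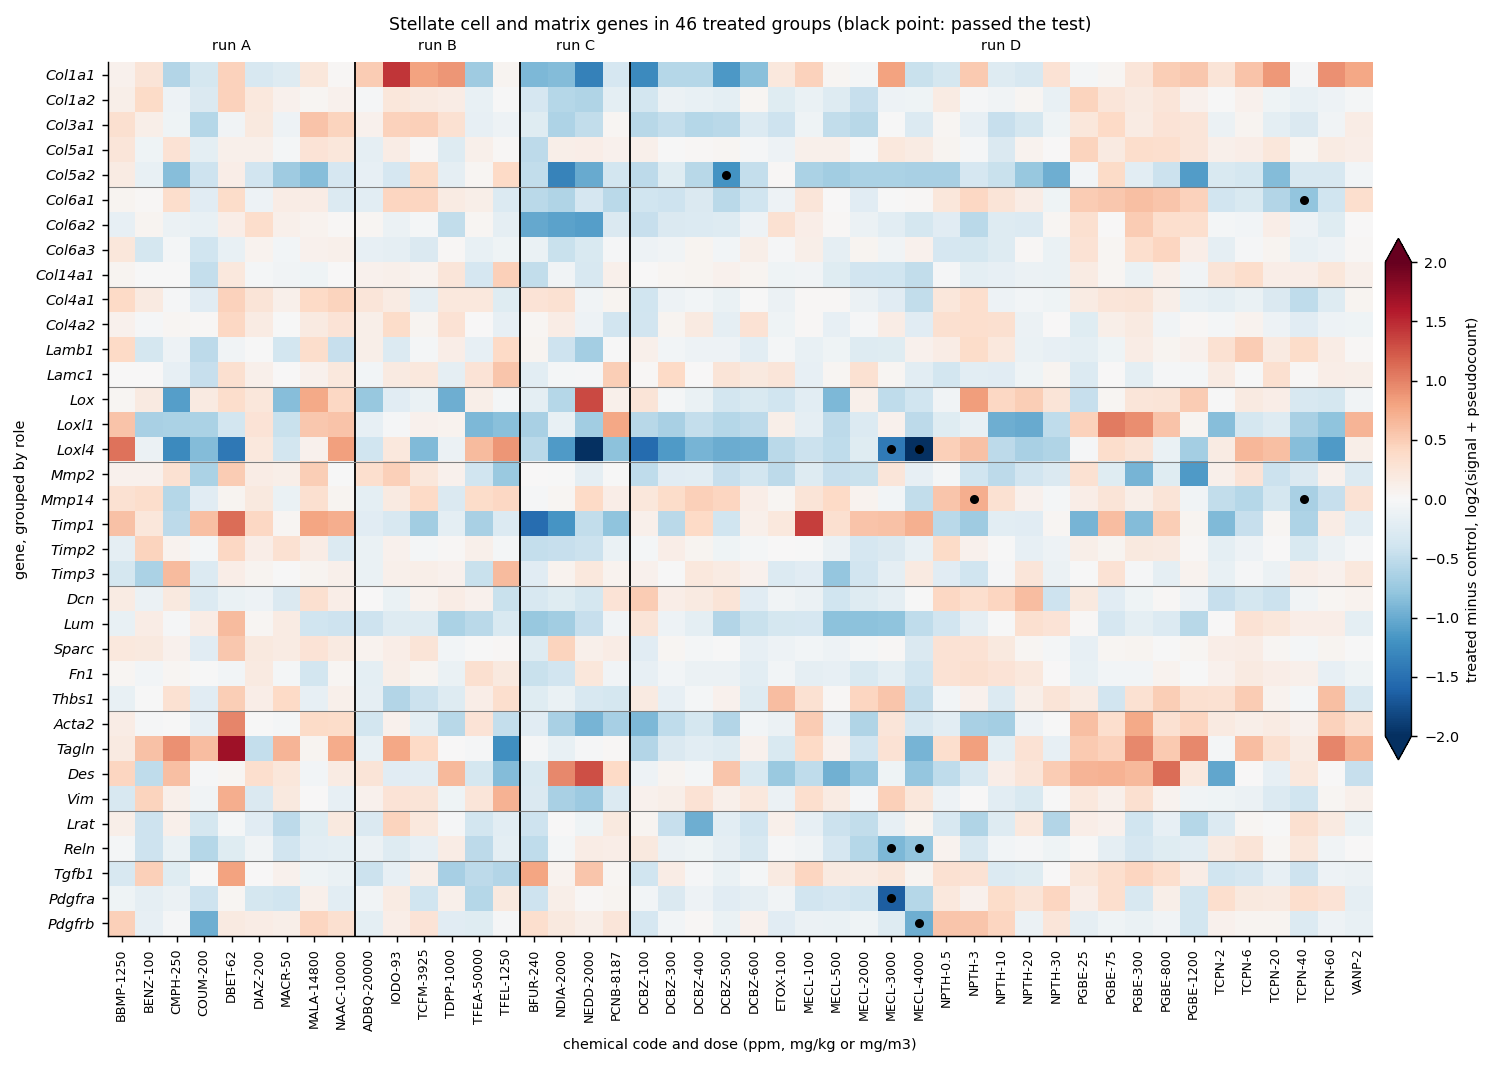
The log2 difference between each treated group and its control set (colour, blue lower and red higher, ending at 2) for the 35 measured genes in rows, grouped by role, and the 46 treated groups in columns, parted by run and ordered by chemical code and dose. Black points mark the 10 calls, of which 3 each are in the columns of methylene chloride at 3000 and 4000 ppm, and the activation markers Col1a1, Acta2 and Tagln have none.

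By role, the fibrillar collagens, which form the tensile fibres of scar (Col1a1, Col1a2, Col3a1, Col5a1 and Col5a2), had 1 call in 230 tests, with differences from -1.36 to 1.43 and a median of -0.04. Col1a1, the major chain of type I collagen, gave both ends of that range, in N-(1-naphthyl)ethylenediamine dihydrochloride and iodoform. Neither passed, and the SE of a Col1a1 difference was 0.60 in the median group. Its partner chain Col1a2 kept between -0.61 and 0.47, and Col3a1 between -0.62 and 0.57.

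The beaded-filament collagens Col6a1, Col6a2 and Col6a3 and the fibril-associated Col14a1 had 1 call in 184 tests, with a range of -1.10 to 0.61. The basement membrane genes, which are the 2 type IV collagen chains Col4a1 and Col4a2 and the laminin chains Lamb1 and Lamc1, had none in 184 and the narrowest range of the roles, from -0.69 to 0.56. Of the copper-dependent cross-linking enzymes Lox, Loxl1 and Loxl4, which join collagen and elastin chains, Loxl4 had both calls of 138 tests and the widest range, from -3.13 to 1.08.

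Among proteases and inhibitors, Mmp14, a membrane-bound collagenase that activates the gelatinase Mmp2, was called higher once and lower once in 46 groups. Mmp2 and the inhibitors Timp1, Timp2 and Timp3 were not called in any treated group, though Timp1 ranged from -1.52 to 1.39. The other matrix proteins, which are the small proteoglycans Dcn and Lum, the collagen-binding Sparc, the plasma and matrix protein Fn1 and the matricellular Thbs1, had no call in 230 tests and lay between -0.81 and 0.63.

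The cytoskeletal markers Acta2, Tagln, Des and Vim had no call in 184 tests. The widest differences were those of Tagln, 1.70 with 1,2-dibromoethane, 0.71 without the array described above, and -1.23 with tetrafluoroethylene. Desmin (Des), an intermediate filament protein that marks rodent stellate cells, ranged from -1.05 to 1.28, with an SE of 0.48 in the median group. Lrat was not called and ranged from -0.97 to 0.44, and Reln, a secreted glycoprotein that marks stellate cells in the liver, had 2 calls. Of the growth factor genes, Tgfb1 was not called (-0.66 to 0.81), and Pdgfra and Pdgfrb, the receptor chains, were called once each.

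Methylene chloride, a solvent, gave the most calls. At 4000 ppm Loxl4, Reln and Pdgfrb fell and at 3000 ppm Reln, Pdgfra and Loxl4 fell, 3 of 35 members each. Of all genes 1.74% were called lower at 4000 ppm and 1.53% at 3000 ppm, and no member was called higher, where 1.18% and 1.51% of all genes were. The median member differed by -0.32 at 4000 ppm and -0.08 at 3000 ppm, and the median gene by 0.02 and 0.05. At 4000 ppm every treated array was below every control array for 5 members, Reln, Loxl4, Pdgfrb, Col4a1 and Fn1, as it was for 3.68% of all genes. At 3000 ppm this held for 2 members, Reln and Pdgfra (2.74% of all genes), and at 2000 ppm for 4, Reln, Lum, Col1a2 and Col3a1 (2.18%).

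Reln had control signals of 1736, 1836, 1366, 1844 and 2079. They were 1330, 1098, 1138 and 1140 at 2000 ppm, 857, 1200, 1051 and 700 at 3000 ppm and 769, 1286, 1106 and 957 at 4000 ppm. From 2000 ppm on, each treated array lay below each control array, while at 100 ppm (1422 to 1942) and 500 ppm (919 to 1734) the ranges overlapped. The difference was -0.57 ± 0.15 (log2, SE; limma adjusted p = 0.019, under 1.5-fold) at 2000 ppm, -0.90 ± 0.15 (7.8e-06) at 3000 ppm and -0.79 ± 0.15 (7.1e-05) at 4000 ppm. Both calls held without any single array. Over the 46 treated groups of all chemicals Reln was below its controls in 36, with a median of -0.13. limma's unadjusted p was under 0.05 in 10 of them, and in 0 groups where it was higher. Such counts were not made for all genes. The gene's other probe set, with a mean signal of 48.2, differed by -0.03 at 3000 ppm and -0.23 at 4000 ppm, and with the mean of both the differences were -0.46 (adjusted p = 0.37) and -0.51 (0.36), so the calls rest on the brighter probe set.

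Loxl4 had control signals of 451, 524, 418, 212 and 443. Of all 14 control sets, which span runs, this one (ACO4) had the highest mean log2 signal of Loxl4, 8.68. At 4000 ppm the signals were 37.1, 46.7, 13.8 and 27.5, all below the lowest control array. At 3000 ppm they were 343, 62.6, 133 and 113, so that 1 array lay within the control range. The fall was 8.74-fold at 4000 ppm (-3.13 ± 0.41, limma adjusted p = 5.9e-09) and 2.66-fold at 3000 ppm (-1.41 ± 0.41, 0.021). At 100, 500 and 2000 ppm the signals (202 to 352, 154 to 394 and 207 to 556) overlapped the controls and the differences were -0.43, -0.51 and -0.24. The other probe set, with a mean of 147, was 0.96 lower at 4000 ppm and differed by -0.28 at 3000 ppm. The 4000 ppm call held under every alternative tried, and the 3000 ppm call was lost without any of 5 arrays of the 2 groups (adjusted p 0.050 to 0.11).

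Pdgfrb, the receptor for PDGF-BB on stellate cells and pericytes, had control signals of 491, 329, 468, 358 and 385 and 297, 273, 153 and 114 at 4000 ppm. The ranges did not overlap, and the difference was -0.98 ± 0.23 (limma adjusted p = 0.0027). Without the lowest array, replicate 4, it was -0.75 (adjusted p = 0.071), and the gene's dimmer probe set differed by -0.64. Pdgfra had control signals of 180, 162, 180, 324 and 267 and 22.4, 124, 112 and 24.1 at 3000 ppm. All 4 lay below the controls, with 2 of them far below the other 2. The difference was -1.65 ± 0.31 (adjusted p = 2.1e-04) at 3000 ppm and -0.58 at 4000 ppm (120, 247, 85.0 and 142), which did not pass (0.34). The 2 other, dimmer probe sets of Pdgfra differed by -0.66 and 1.04 at 3000 ppm, so the probe sets of this gene disagree.

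Trends were fitted over controls and 5 doses taken as equal steps, and are given as the log2 change over all the steps. Of 175 trend tests of members in the 5 series 7 were called lower and none higher, where over all genes 0.572% were called lower and 0.536% higher, and 4 of the 7 were with methylene chloride. In this series 2.07% of all genes were called lower and 1.43% higher. The trend was -2.62 ± 0.35 for Loxl4 (limma adjusted p = 6.8e-09), -0.95 ± 0.12 for Reln (4.5e-09), -0.96 ± 0.27 for Pdgfra (0.012) and -0.75 ± 0.20 for Pdgfrb (0.0061). The Pdgfra trend was lost when only the dosed groups were fitted (-0.68, 0.21) or all its probe sets were averaged (-0.11, 0.83). Col14a1 (-0.51), Col4a1 (-0.48), Fn1 (-0.31) and Mmp14 (-0.53) passed the adjusted p (5.5e-04, 0.0049, 0.017 and 0.018) but not the fold.

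The other stellate cell and activation markers did not pass. Lrat had 484, 434, 265, 463 and 433 in controls and 238, 598, 580 and 385 at 4000 ppm, a difference of 0.05. Dcn had 3600, 5489, 5217 and 4006 at 4000 ppm against 4116, 4558, 3584, 6002 and 4785, a difference of -0.01. Col1a1 differed by -0.44, Col3a1 by -0.27, Acta2 by -0.32 and Tagln by -0.92 (adjusted p = 0.11). Whether the change of Reln differed from those of Lrat and Dcn was not tested. 7 members were more than 1 above the other arrays in replicate 2 at 4000 ppm, and without it the median member was -0.41 and 4 were called lower, the fourth being Col14a1 (-0.64, 5.2e-04).

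**Figure D3:**
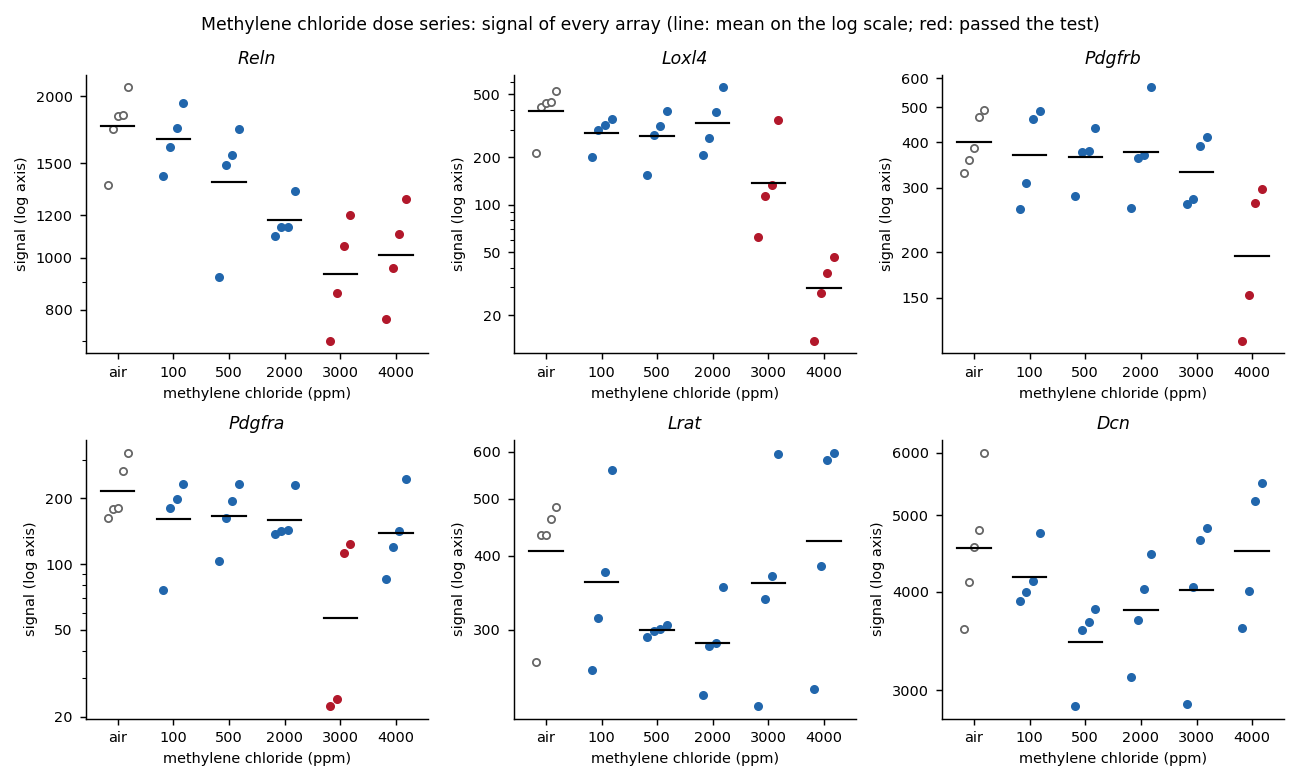
Signals (log axis) of every array of the methylene chloride series for 6 genes, by concentration in ppm, with open points for the 5 air controls, red points for groups that passed the test and a line at the mean on the log scale. Loxl4 stays between 13.8 and 46.7 at 4000 ppm against 212 to 524 in controls, and Lrat and Dcn overlap their controls at each dose.

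Of the related genes, 1 of 20 of the TGF-beta and PDGF pathway list fell at 4000 ppm, the PDGF receptor ligand gene Pdgfc (-1.32, limma adjusted p = 1.4e-04), and it fell at 3000 ppm too (-1.38, 1.0e-04). Of 26 other matrix genes, Ecm1, an extracellular matrix protein, fell at 4000 ppm (-0.68, 9.3e-04) and the laminin chain Lama4 at 3000 ppm (-1.39, 0.0057). Over the series Pdgfc (-1.51, 6.1e-08), Ecm1 (-0.72, 1.6e-05) and Skil, a repressor of TGF-beta signalling (-0.74, 0.039), fell. None of the 10 other collagens, 11 collagen processing genes, 14 proteases and inhibitors or 20 further stellate cell and fibroblast genes was called at 3000 ppm, at 4000 ppm or in the trend.

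Genes of other cell types moved in the same mice. The summed signal of 12 sinusoidal endothelium genes was 15469 to 17789 in controls, 12918 to 13797 at 3000 ppm and 12042 to 14497 at 4000 ppm, with 1 of 12 genes above 0 at each dose, and the scavenger receptor gene Stab2 fell over the series (-0.65, limma adjusted p = 1.5e-09). That of 11 Kupffer cell genes was 21436 to 22918 in controls and 16209 to 20258 at 3000 ppm. It overlapped the controls at 4000 ppm. That of 3 erythroid genes was higher at 3000 ppm (1272 to 1855 against 622 to 1134), where Alas2 rose (0.93). That of 7 pancreas genes, a tissue next to the liver, was lower at 4000 ppm (3392 to 5246 against 5677 to 7578), where Cela1 fell (-0.60). RNA integrity, given for 3 of 5 control arrays, was 8.9 to 9.1 in these and 9.1 to 9.3 at the 2 doses. The part of these genes and of RNA integrity in the result was not tested.

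Naphthalene, an aromatic hydrocarbon, gave the only call in the upward direction. Mmp14 rose at 3 ppm, 1 of 35 members, where 1.22% of all genes were called higher and 2.92% lower. For 4 members, Mmp14, Fn1, Loxl4 and Tagln, all treated arrays were above all controls, as for 3.95% of all genes. Its signals were 1026, 733, 967, 880 and 870 in controls and 1413, 1772, 1337 and 1458 at 3 ppm, without overlap. The difference was 0.73 ± 0.18 (limma adjusted p = 0.0060). At 0.5 ppm the signals (1415, 1605, 1089 and 1184) also lay above all controls but the difference did not pass (0.55, 0.054). At 10, 20 and 30 ppm they overlapped the controls, reaching 684 to 1009 at 30 ppm, and no member passed in the trend over the series. Of the gene's other probe sets 1 differed by 0.84 and 1, the dimmer, by -0.44, and with the mean of all 3 the call was lost (0.37, adjusted p = 0.20). With quantile normalisation the median gene moved by 0.10 at 3 ppm, so the size of the differences at this dose depends on the scaling. The summed signal of 10 hepatocyte genes was 354350 to 432390 in controls and 496390 to 556440 at 3 ppm, and RNA integrity was 8.5 to 8.9 in controls and 9.2 in treated arrays. The vascular smooth muscle genes Mylk (-0.61) and Myh11 (-1.44), the endothelial Lyve1 (-0.97) and the bile duct gene Epcam (-1.50) fell. Their part in the result was not tested.

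Among related genes at 3 ppm, 2 of 26 other matrix genes rose and 3 fell. Emilin1, an elastic fibre protein (0.61, limma adjusted p = 0.042), and the matricellular Ccn1 (0.68, 0.043) rose, and the basement membrane linker Nid1 (-0.75, 0.0011), the laminin chain Lama5 (-0.97, 0.021) and elastin, Eln (-0.97, 0.029), fell. Of 20 TGF-beta and PDGF pathway genes Tgfbi (0.59, 0.0067) and the inhibitory Smad6 (0.79, 0.016) rose. Of 20 stellate cell and fibroblast genes Nes (-1.06, 0.0085) and Thy1 (-1.23, 0.047) fell, and of 11 collagen processing genes the collagen chaperone Serpinh1 (-0.69, 0.015). At 0.5 ppm Ecm1 (0.62, 0.0056), Ccn2 (0.96, 0.025), Lama4 (1.12, 0.036) and Ccn1 (0.73, 0.040) rose and Nes fell (-1.13, 0.0064), where 0.863% of all genes rose and 1.63% fell. At the same dose 3 of 10 hepatocyte genes rose, Alb (0.67), Serpina1c (0.66) and Ttr (0.61), with a list median of 0.53, and the endothelial Cdh5 fell (-0.65). RNA integrity was 9.2 in the 3 treated arrays that give it and 8.5 to 8.9 in controls. Their part was not tested.

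With 1,2,3-trichloropropane, a chlorinated solvent, Mmp14 and Col6a1 fell at 40 mg/kg, 2 of 35 members, where 0.813% of all genes were called lower and 0.522% higher. Mmp14 had 1342, 1324, 1328, 1666 and 1536 in controls and 1130, 892, 787 and 854 at 40 mg/kg, a difference of -0.65 ± 0.18 (limma adjusted p = 0.034). Col6a1 had 240, 251, 201, 266 and 297 in controls and 163, 142, 128 and 119, a difference of -0.79 ± 0.22 (0.037). Neither gene overlapped its controls, nor did Col4a1 or Loxl1, 4 of 35 members against 4.85% of all genes. At the higher dose of 60 mg/kg neither was called, with 906, 1081, 1087 and 1079 for Mmp14, again below all controls, and 122, 241, 225 and 177 for Col6a1. Both calls were lost without any of 5 arrays of the 2 groups, and each was lost under 4 of 9 other settings. For Mmp14 these were both corn oil control sets together (-0.41, 0.24), the mean of all probe sets (-0.45, 0.16), values as deposited (0.16) and the 2 groups alone (0.12). For Col6a1 they were values as deposited (0.12), the 2 groups alone (0.11), the mean of all probe sets (0.051), which leaves this gene's own value as it is, and the Gapdh ratio as a covariate (0.051). The summed signal of the sinusoidal endothelium genes was 17020 to 18934 in controls and 15652 to 16578 at 40 mg/kg, and its part was not tested. Of the related genes Hgf, a hepatocyte growth factor that stellate cells make, rose (1.11, 0.026).

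Loxl4 fell over the 1,2,3-trichloropropane series (trend -1.26 ± 0.35, limma adjusted p = 0.044), 1 of 35 members, where 0.363% of all genes were called lower. Its signals were 289, 203, 224, 12.8 and 233 in controls, 82.7, 50.7, 160 and 40.2 at 40 mg/kg and 92.8, 69.4, 27.5 and 57.1 at 60 mg/kg. 1 control array, replicate 4, lay below every treated array, and with it neither dose was called. Without it the differences were -1.47 (adjusted p = 0.038) at 40 mg/kg and -1.75 (0.0084) at 60 mg/kg in place of -0.85 and -1.14. The trend was lost without any of 14 arrays. It was also lost under 5 of 10 other settings, with adjusted p of 0.052 (quantile normalisation), 0.11 (values as deposited), 0.058 (a lower pseudocount), 0.078 (the mean of both probe sets, -0.92) and 0.14 (the Gapdh ratio as a covariate, -1.05). The bile duct gene Sox9 fell over the same series (-1.01, 0.010), and its part was not tested.

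Col5a2 and Mmp2 fell over the series of propylene glycol mono-t-butyl ether, a glycol ether, 2 of 35 members, where 0.0495% of all genes were called lower and 0.203% higher. Col5a2, a minor fibrillar chain that sets the width of collagen fibres, had 271, 238, 252, 236 and 292 in controls and 96.7, 82.9, 156 and 111 at 1200 ppm, all below the controls. Its trend was -1.04 ± 0.24 (limma adjusted p = 0.015), and the difference at 1200 ppm alone was -1.12 (0.063). At 75 ppm the 4 arrays had 284 to 453, and at 800 ppm the 5 had 137 to 231, also below the controls. Mmp2 had 131, 188, 130, 192 and 181 in controls and 122, 41.9, 22.8 and 118 at 1200 ppm, also without overlap, with a trend of -1.14 ± 0.28 (0.028). These were the 2 members without overlap at this dose, against 0.923% of all genes. Their other probe sets differed by -0.58 (Col5a2) and -0.31 (Mmp2) there. The Col5a2 trend was lost without replicate 1 at 1200 ppm (0.079) and that of Mmp2 without any of 6 arrays, and both were lost with values as deposited (0.056 and 0.067). The summed signal of the erythroid genes was 588 to 958 in controls and 1006 to 1969 at 1200 ppm, and RNA integrity was 8.7 to 8.8 and 9.1 to 9.2. Their part was not tested.

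With 1,4-dichlorobenzene Col5a2 fell at 500 mg/kg, 1 of 35 members, where 0.242% of all genes were called lower. The signals were 251, 243, 153, 219 and 291 in controls and 129, 183, 115 and 16.2 at 500 mg/kg, so the ranges overlapped. The difference was -1.19 ± 0.29 (limma adjusted p = 0.0088), and without the array at 16.2 it was -0.64 (0.33). The gene's other, dimmer probe set differed by -0.06. At 600 mg/kg the signals were 290, 109, 120 and 160 and the gene was not called. Over the 46 treated groups of all chemicals Col5a2 was below its controls in 39, with a median of -0.40. limma's unadjusted p was under 0.05 in 12 of them, and in 0 groups where it was higher. Such counts were not made for all genes. The median member differed by -0.18 at 500 mg/kg and the median gene by -0.04. The summed signal of 7 vascular smooth muscle genes was 1847 to 2614 in controls and 1348 to 1545 at this dose, with none of the 7 above 0, and that of the pancreas genes was 4300 to 7233 and 2252 to 3106, with Cela1 lower (-0.97). RNA integrity was 7.6 to 7.9 in controls and 7.4 to 7.7 at this dose. The log2 ratio of 3′ to 5′ Gapdh signal, another measure of RNA quality, was -0.41 to -0.12 in controls and -0.59 to -0.51 at this dose, without overlap. Their part was not tested. No member passed in the trend over the 1,4-dichlorobenzene or the naphthalene series.

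**Figure D4:**
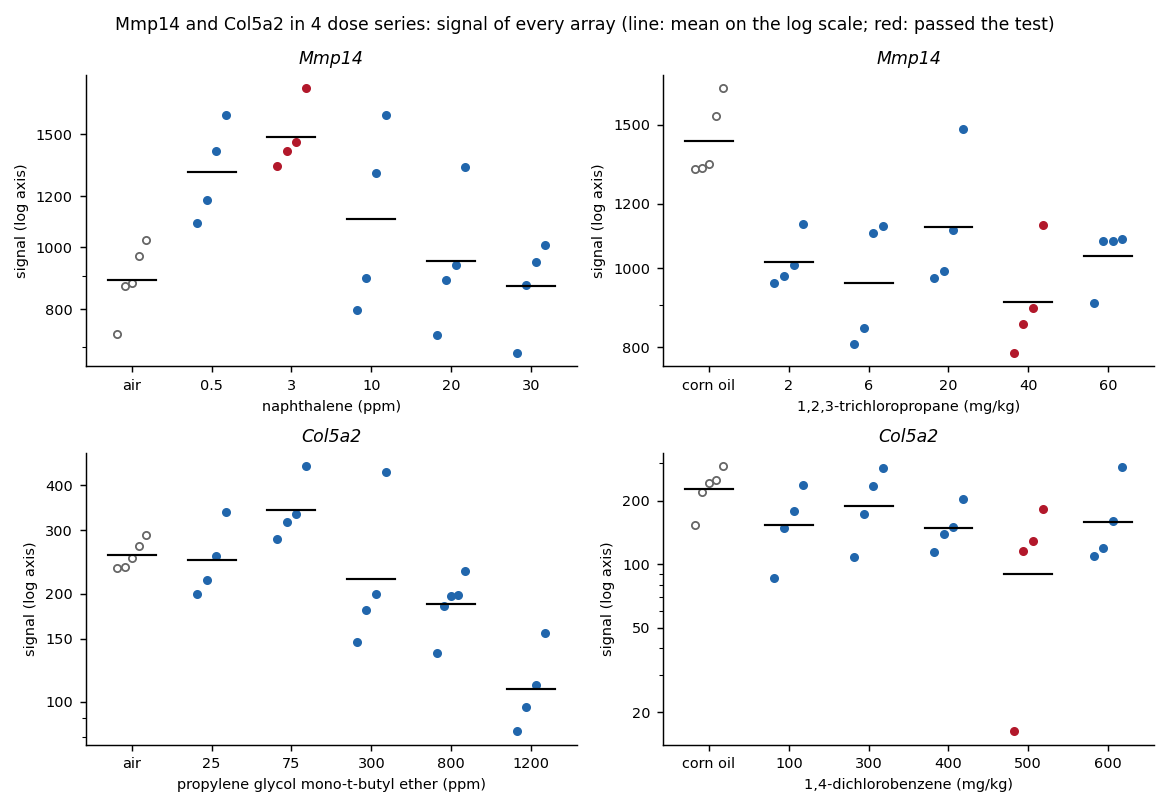
Signals (log axes) of every array by dose for Mmp14 in the naphthalene and 1,2,3-trichloropropane series and Col5a2 in the 1,4-dichlorobenzene and propylene glycol mono-t-butyl ether series, with open points for controls, red points for groups that passed the test and lines at the mean on the log scale. Mmp14 is above its controls at 0.5 and 3 ppm naphthalene and overlaps them at 30 ppm, and 1 array at 16.2 sets Col5a2 apart at 500 mg/kg.

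In run C, with 3 mice a group, members differed from controls without calls. With 2,3-benzofuran every treated array was below every control array for 11 of 35 members, as for 17.3% of all genes, and the median member differed by -0.30 and the median gene by -0.12. Fn1 (-0.44, limma adjusted p = 0.022) and Reln (-0.51, 0.047) passed the adjusted p but not the fold. With quantile normalisation the median gene moved by 0.14 in this comparison, so the size of the downward difference depends on the scaling. With 1,5-naphthalenediamine 11 members lay below all controls, as did 16.4% of genes, and 2 above, Sparc (0.45) and Des (0.96), as did 9.55%, and Fn1 again passed the adjusted p only (-0.39, 0.039). With N-(1-naphthyl)ethylenediamine dihydrochloride 8 members were below and 6 above all controls, against 11.4% and 10.3% of genes. There Loxl4 had 13.9, 84.4 and 89.9 against 268, 288 and 297 in controls, a difference of -2.11 ± 0.46 that just missed the threshold (0.052). RNA integrity was 7.7 to 8.1 in these treated arrays and 8.8 to 9.1 in controls, and the log2 Gapdh 3′ to 5′ ratio was -0.06 to 0.16 and -0.33 to -0.22. Neither overlapped, and their part was not tested.

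Of the related genes, P4ha2, a collagen prolyl hydroxylase subunit, rose with 2,3-benzofuran (1.40, limma adjusted p = 7.9e-04), and Reck, an inhibitor of matrix proteases (-1.04, 0.015), Tgfbi (-0.66, 0.033) and Postn, a matricellular protein (-0.60, 0.047), fell, where 1.35% of all genes rose and 1.92% fell. The macrophage gene Csf1r (-0.65), the endothelial Tek (-0.62), the bile duct gene Prom1 (-2.16) and the pancreas gene Cela1 (-1.79) fell too. With 1,5-naphthalenediamine Hgf (-0.70, 0.035), Eln (-1.31, 0.043) and Nes (-1.30, 0.048) fell, where 2.19% of all genes did. So did the endothelial Stab2 (-0.90) and Fcgr2b (-0.62), the pancreas gene Cela1 (-2.04) and the adipose gene Retn (-2.26). With N-(1-naphthyl)ethylenediamine dihydrochloride Pdgfc (-0.84, 0.042) and Postn (-0.77, 0.042) fell, where 0.456% of all genes did. In run A, the basement membrane collagen Col15a1 (1.24, 0.018) and the receptor Tgfbr2 (1.01, 0.029) rose with malathion, where 2.36% of all genes rose. There Prom1 rose (3.30) and Stab2 (-0.77) and Cela1 (-1.57) fell, and RNA integrity was 4.7 to 6.5 in the 4 treated arrays that give it and 6.7 to 7.2 in controls, without overlap. In run D, the receptor Tgfbr1 fell with 1,4-dichlorobenzene at 300 mg/kg (-0.69, 0.028), where 1.26% of all genes fell, the bile duct gene Krt19 (-1.53) among them. The part of these other cell genes and of RNA integrity was not tested. With all arrays in the fit, no member was called with any of these chemicals at these doses.

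Control sets of run B differed in these genes. Between the corn oil gavage controls (CCO4) and the air controls (ACO1), 5 members were higher and 8 lower in CCO4, where 15.8% of all genes were called higher and 12.8% lower. Tgfb1 had 1055, 1266, 922 and 303 in ACO1 and 280, 277, 235 and 338 in CCO4 (-1.43, limma adjusted p = 8.6e-04). Loxl1 had 305, 412, 438 and 167 in ACO1 and 111, 166, 120 and 78.2 in CCO4 (-1.31, 0.0043), with the lowest ACO1 array just above the highest CCO4 array. The basement membrane chain Col4a1 had 1274, 1614, 1407 and 844 in ACO1 and 740, 785, 842 and 856 in CCO4 (-0.63, 0.0050). In the other direction, Col14a1 had 745, 701, 541 and 1118 in ACO1 and 1205, 1048, 1305 and 1439 in CCO4 (0.71, 0.0049), and Dcn (0.83), Reln (0.70), Lrat (0.85) and Timp3 (0.89) were also higher in CCO4. Col6a1 (-0.92), Tagln (-1.36), Pdgfrb (-0.86), Col4a2 (-0.64) and Col1a1 (-1.58) were lower.

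In these 4 genes replicate 4 of ACO1 lay nearer to CCO4 than any other ACO1 array did. Genes of other cell types were called in both directions between CCO4 and ACO1. Of 12 endothelial genes Pecam1 (1.65), Tek (1.03) and Fcgr2b (0.62) were higher in CCO4 and Egfl7 (-0.86) lower. Of 11 Kupffer cell genes Vsig4 (1.25) was higher and C1qa (-0.63) and C1qb (-0.66) lower. Apob (1.82) and Mylk (0.93) were higher, and Krt19 (-1.21), Alas2 (-1.09) and Slc4a1 (-1.87) lower. The log2 Gapdh ratio was -0.64 to -0.62 in CCO4 and -0.54 to -0.40 in ACO1, without overlap, and RNA integrity was 8.3 to 8.6 in CCO4 and 8.7 to 8.9 in the 2 ACO1 arrays that give it. Their part was not tested.

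Between the feed controls (FCO1) and ACO1, 2 members were higher and 1 lower in FCO1, where 8.04% of all genes were called higher and 4.88% lower. Col5a2 had 68.4, 187, 121 and 169 in ACO1 and 306, 206, 358 and 202 in FCO1 (0.93, limma adjusted p = 0.024), without overlap. Col14a1 had 1341, 1017, 1375 and 917 in FCO1 (0.60, 0.034) and Loxl1 had 198, 140, 179 and 83.6 (-1.03, 0.042), and both overlapped the ACO1 values given above. Apob (1.48) and Mylk (0.90) were also higher in FCO1. With quantile normalisation the 16 calls between control sets, 7 higher and 9 lower, became 20, 5 higher and 15 lower. Without 1 ACO1 array they were 10 (replicate 1), 6 (replicate 2), 5 (replicate 3) or 29 (replicate 4). Vehicle, route and the handling of a control set cannot be told apart. In the other 11 pairs of control sets limma called no member, with 1 to 5 of 35 at an unadjusted p under 0.05. Over all 14 control sets the group mean varied most for Des (6.87-fold), Tgfb1 (6.21-fold) and Loxl4 (6.09-fold) and least for Col6a3 (1.40-fold) and Fn1 (1.42-fold). These ranges span runs, so they hold differences between runs too. Des was lowest in the feed controls of run C and highest in CCO3, the set with the array that stood apart, where that array had 319 and the others 273, 187 and 301.

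Within groups, the members were also set against Col1a1, the gene most used as a readout of fibrogenesis, after group means were removed. Over 242 arrays 18 of 34 members correlated with it, all positively (permutation within groups with 100000 resamples, two-sided, adjusted over 34 relations). Genes outside the members were not put through this test. The counts here and below therefore cannot be set against a share of all genes. For Col3a1 Pearson's r was 0.50 and Spearman's rho 0.45, each with a permutation p of 1e-05, the smallest they can give (adjusted 8.5e-05 and 1.1e-04). For Col1a2 r was 0.45 and rho 0.41, for Acta2 0.43 and 0.38 and for Tagln 0.35 and 0.29. Reln did not correlate with Col1a1 (r = 0.07, rho = 0.05, permutation p = 0.42 and 0.55, adjusted 0.55 and 0.61).

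The 2 arrays farthest from the Col1a1 median were those that stood apart in run A. Without them 13 members correlated, with r of 0.44 for Col3a1, 0.38 for Col1a2, 0.37 for Acta2 and 0.27 for Tagln. By run, 20 members passed in run A, 0 in run B, 0 in run C and 6 in run D, and r for Col3a1 was 0.71, 0.50, 0.10 and 0.37. The adjusted permutation p of this pair did not pass in run B (0.36, with 36 arrays) or in run C (0.90, with 18), so within runs the relation passed in runs A and D. Run A holds both arrays that stood apart, and its relation without them was not tested. Several groups of run A also held arrays of different run codes. limma blocked for the code, but only group means were removed for the correlations. The part of the run code in them was not tested. In the control groups alone 4 of 34 passed. With Col3a1 in place of Col1a1, a choice made after the data were seen, 28 of 34 members correlated, all positively, and 23 without the 2 arrays.

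As a description with no test, over 240 arrays without those 2, the highest r were those of Dcn with Reln (0.68), Col1a2 with Col3a1 (0.66), Col1a2 with Acta2 (0.58), Col3a1 with Acta2 (0.57) and Col14a1 with Reln (0.55). The median r over 595 pairs of members was 0.08, and over pairs of a member with another gene 0.0045. 2 sets, chosen after their values were seen, are these. Among Reln, Dcn, Lum, Lrat and Col14a1 the 10 pairs had r from 0.35 to 0.68, and among the fibrillar collagens Col1a2 and Col3a1 with Acta2 it was 0.57 to 0.66. Mmp14 ran against the first set, with -0.43 for Reln and -0.37 for Lrat, and Col4a1 and Col4a2 had 0.47 with each other. Reln and Loxl4, which both fell with methylene chloride, had -0.11. All arrays share their scaling, and the depth of signal and RNA quality differ between them. Differences between the run codes of run A were not removed here either.

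**Figure D5:**
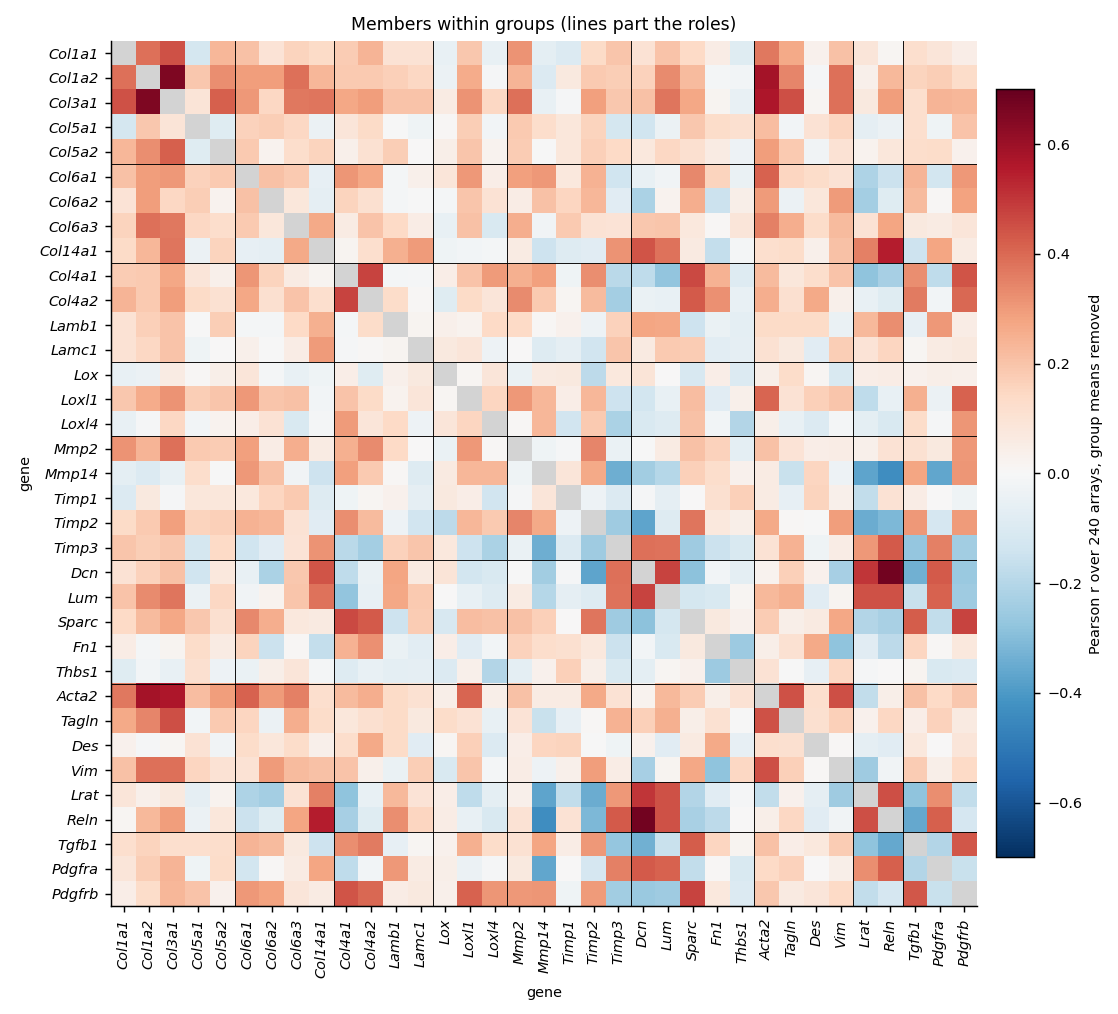
Pearson's r between members over 240 arrays after group means were removed (colour, from -0.7 to 0.7), with the 35 genes in the same order by role on both axes and lines between roles. Dcn with Reln reaches 0.68 and Col1a2 with Col3a1 0.66, while the median pair has 0.08.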

How the data were processed

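Liver RNA was measured on Affymetrix Mouse430_2 arrays, 1 per mouse, with no technical repeats in the sources used here. The deposited values are linear signal intensities from GCOS 1.0, per the submitters' processing notes, and further steps by the authors are not given in the sources used here. The values themselves show scaling to a trimmed mean (2% trimmed at each end) of 500 on 240 of 242 arrays. 2 arrays were not at this target and were rescaled to it: replicate 4 of vanadium pentoxide (deposited trimmed mean 148.4) and replicate 2 of 1,5-naphthalenediamine (84.5). The median signal of an array was 69.4 to 137, and the number of arrays limits the precision.

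Of 45101 probe sets, 34945 had 1 gene in the platform's annotation, 10092 had none or several and 64 were controls. Those with 1 gene gave 18193 genes, of which 9010 had several probe sets, and the brightest was used. Signals were tested as log2(signal + 17.3), the pseudocount being each array's 20th percentile, taken at its median over the arrays. limma 3.58.1 (lmFit and eBayes; R 4.3.3, with version 1.17.8 of data.table) fitted all groups of a run together, with run code as a block in run A, and p-values were adjusted by Benjamini-Hochberg over all genes of a comparison. Each treated group was set against a single control set of its run and vehicle, the one whose animal numbers follow those of the treated mice. In run D this was ACO4 for methylene chloride and ethylene oxide and ACO5 for naphthalene. It was ACO3 for propylene glycol mono-t-butyl ether and vanadium pentoxide, CCO5 for 1,4-dichlorobenzene and CCO6 for 1,2,3-trichloropropane. The control sets of a run were set against each other, and each dose series was fitted as a trend. The fit was tested on simulated data. Other steps used Python 3.11.15, NumPy 2.4.6, pandas 2.3.3 and Matplotlib 3.10.9.

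The members, lists of related and other-cell genes, and tests were chosen with earlier results of these data known. All members are described by their ranges. Called members are given with the value of every array (up to 4 per comparison, by lowest adjusted p). Of related genes up to 4 called per comparison are named by the same rule, and for naphthalene at 3 and 0.5 ppm the further called genes were named after their values were seen. Genes of other cell types are given beside the results named, where their summed signal did not overlap the controls or they were called there. Dose labels were used where titles differ from them, as for malathion, pentachloronitrobenzene and 2,3-benzofuran. The alternatives tried were quantile normalisation within a run, values as deposited, a pseudocount 4 times lower or higher, dim genes left out, the mean of all probe sets, 2 groups alone, control sets of a vehicle pooled, no run code block, the Gapdh ratio as a covariate, a linear dose scale, dosed groups alone and each array left out in turn. The correlations without the 2 arrays that stood apart, and those with Col3a1, were added after the data were seen.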

Additional observations from a re-analysis of the deposited data

Results flagged for a closer look

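An array is given here where its distance to the nearest array of its group, divided by the whole range of the group, was above Dixon's 95% critical value (0.829 for 4 arrays and 0.71 for 5). Chance gives this in about 1 of 20 groups. Of 62 sets of a called gene in a group, 3 passed, and of 54 groups tested on the mean log2 signal of the 35 genes, 6 passed.

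Loxl4 was far below the other controls in replicate 4 of the air controls ACO4 of the methylene chloride series (ratio 0.745, log2 signal 7.84 against a median of 8.86 in the others). It was also far below in replicate 4 of the corn oil controls CCO6 of the 1,2,3-trichloropropane series (0.858, 4.91 against 7.94). Pdgfra was high in replicate 4 of methylene chloride at 2000 ppm (0.926, 7.95 against 7.32).

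The mean over the 35 genes was high in replicate 2 of control set CCO3 (ratio 0.929, mean log2 signal 9.60 against 8.82), replicate 2 of coumarin (0.895, 8.74 against 8.29), replicate 3 of 1-amino-2,4-dibromoanthraquinone (0.876, 8.73 against 8.58), replicate 3 of the 300 ppm group of propylene glycol mono-t-butyl ether (0.835, 8.89 against 8.60) and replicate 1 of trichlorofluoromethane (0.833, 8.77 against 8.68). It was low in replicate 1 of 1,4-dichlorobenzene at 400 mg/kg (0.925, 8.36 against 8.64). Replicate 3 of 1,2-dibromoethane, which had the highest median difference from its group, did not pass this rule.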

How the results depend on the processing

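The 10 calls in treated groups became 5 with the mean of all probe sets of a gene and 1 when each group was fitted alone with its controls, and 9 to 15 under the other alternatives. The 7 trend calls became 4 with values as deposited and 1 with the mean of all probe sets, and 6 to 8 otherwise. Leaving out 1 array gave 8 to 14 calls in treated groups, 6 to 8 in trends and 5 to 29 between control sets, where the count with all arrays was 16 and other alternatives gave 15 to 20. Of 34 genes, 18 correlated with Col1a1 within groups, but 4 in the control groups alone, 0 in run B, 0 in run C and 6 in run D. No called gene changed its direction. The members' median for 1,2-dibromoethane did, from 0.21 to -0.18 without its replicate 3, and that between CCO4 and ACO1 went from 0.04 to between -0.15 and -0.06 without any of 4 arrays. That between FCO1 and ACO1 went from -0.10 to 0.03 without replicate 3 of FCO1 and to 0.01 without its replicate 4. Other medians also changed sign without 1 array, among them those of benzene, pentachloronitrobenzene and tris(2,3-dibromopropyl)phosphate. So did that between CCO2 and the distilled water controls. Quantile normalisation moved the median of all genes by 0.14 with 2,3-benzofuran, 0.15 with 1,5-naphthalenediamine and 0.10 with naphthalene at 3 ppm. Values as deposited moved it by -0.66 with 1,5-naphthalenediamine and -0.36 with vanadium pentoxide. No paired analysis was possible because the replicate numbers were given in accession order and pair no mice across groups. Groups of 3 to 5 mice and the within-group spread limit which changes could pass, and dim genes such as Lox, Timp1 and Col1a1 vary most.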
